A study of Vitis vinifera with 12 samples.

Results

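The step from 60 to 80 days after full bloom is the last one sampled in the fruit of Victoria, a white table-grape cultivar of the grapevine Vitis vinifera. It rests on 6 of the 12 libraries of the series, the 3 libraries a, b and c of 60-day fruit and the 3 libraries of 80-day fruit, chosen by their labelled age. The other 6 libraries, of 40-day and 50-day fruit, served to set the change against the earlier course and entered the common estimate of the spread. The labels name no treatment, and the libraries differ in them only in age and letter. The labels' protocols say that RNA of several biological replicates was extracted separately and then pooled, so it is not settled whether a, b and c are separate harvests. The p-values thus speak of the spread among these libraries alone, which may be technical. Of the 22580 gene IDs in the table, 14743 had at least 1 FPKM (fragments per kilobase of transcript per 1000000 fragments) in 3 or more of the 12 libraries and were tested. The other 7837 IDs fell below that filter.

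A grape berry grows in successive phases that are parted by veraison, the onset of ripening. During ripening the flesh softens as cell walls are loosened, hexose sugars accumulate in the vacuole, malic acid is broken down, and chlorophyll is lost from the skin. Late in ripening, sugar and aroma compounds go on building up, and pathogenesis-related proteins such as thaumatin-like proteins and chitinases are among the abundant proteins of the fruit. The deposited table does not pair any ID with a gene name or product, and its IDs had 0 matches in the gene table used as a reference. The genes below are therefore given by ID and without a function, and the labelled tissue could not be checked against marker genes. In bulk fruit, fewer cells of a type and less RNA per cell cannot be told apart.

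Libraries of the same age resembled each other more than libraries of the other age did. Over the tested genes, Pearson correlations of log2(FPKM + 1) were 0.981 to 0.990 among the 60-day libraries, 0.971 to 0.983 among the 80-day libraries and 0.926 to 0.949 across these ages. The summed FPKM was 1180756 to 1282133 in the 60-day libraries and 1304968 to 1395232 in the 80-day libraries, 1.11 times as high on average at 80 days. The absolute depth is unknown. From the steps between low values, the depth of these 6 libraries relative to library a of 60 days was estimated at 0.774 to 0.993 in the other 5, with the least sharp estimate in library c of 60 days. The median SD between libraries of one age was 0.13 on the log2 scale at 60 days and 0.17 at 80 days.

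Ripening fruit lost transcripts of more genes than it gained between 60 and 80 days. Genes were called when the adjusted p of limma's moderated test (Benjamini-Hochberg over all tested genes) was under 0.05 and the log2(FPKM + 1) values differed by 1 or more. By this rule 1398 genes changed, 9.48% of those tested, of which 395 rose (2.68%) and 1003 fell (6.80%). The median called rise was 1.39 and the median called fall -1.46 on that scale, while the median over all tested genes was -0.01, with quartiles of -0.34 and 0.25. Changes of at least 3 were found in 20 rising and 50 falling genes, and changes of at least 4 in 7 and 13. Without the minimum of 1, the directions were closer to balance, and 2271 genes were higher and 2866 lower at 80 days by the same adjusted p. The median standard error of a difference was 0.15 on the log2 scale.

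**Figure D1:**
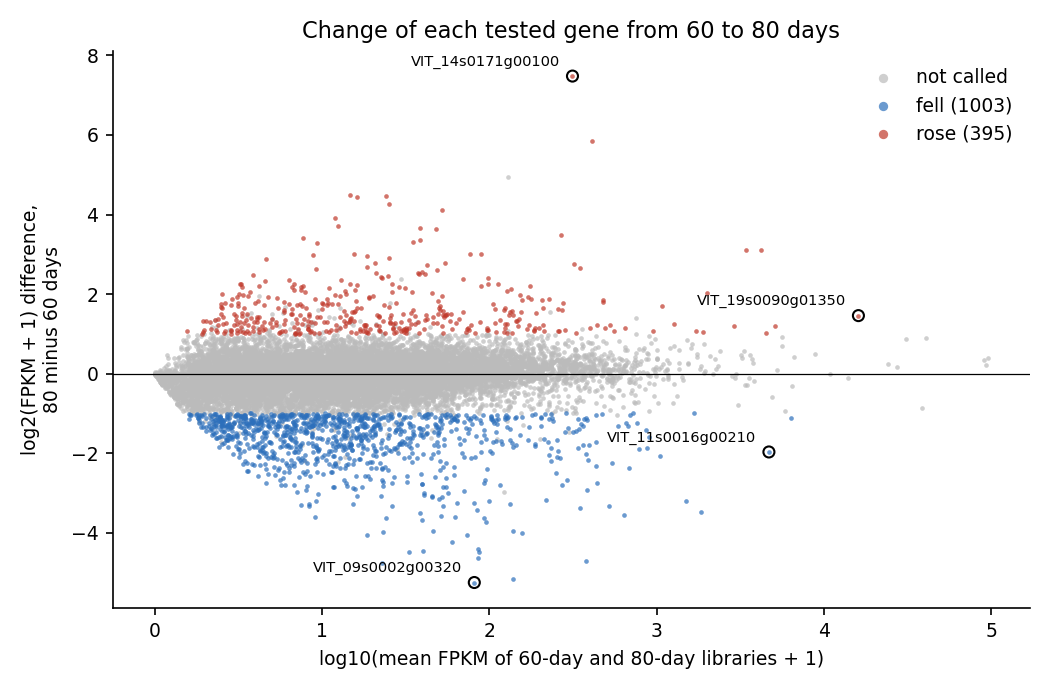
Difference between 80 and 60 days on the log2(FPKM + 1) scale for each of the 14743 tested genes (vertical axis) against the log10 of its mean FPKM plus 1 over both ages (horizontal axis). Red points rose (395), blue points fell (1003), grey points were not called, and the 4 named genes are circled.

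The largest rise on the log2 scale was that of VIT_14s0171g00100, whose ID places it on chromosome 14. It was low in every library before the last sampling. In libraries a, b and c of 40 days its values were 3.68, 3.56 and 0.517 FPKM. At 50 days they were 8.18, 5.10 and 5.09 FPKM, followed by 2.10, 2.73 and 2.44 at 60 days. The 80-day values were 487, 565 and 818 FPKM, far above every earlier library. The ratio of the mean FPKM of 80 days to that of 60 days was 257, and the difference was 7.48 ± 0.38 (SE, n = 3 per age) on the log2(FPKM + 1) scale (limma adjusted p = 8.72e-07). It exceeded the change from 40 to 50 days of the same gene by 6.35 ± 0.53 on that scale (limma adjusted p = 2.27e-05).

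The largest gain in FPKM among the rising genes that met the criteria for naming was that of VIT_19s0090g01350 on chromosome 19. This gene was already abundant at 60 days, with 10375, 8290 and 7037 FPKM, and stood at 27869, 23517 and 19189 FPKM at 80 days. The libraries of these ages did not overlap, and the mean was 2.75 times as high at 80 days. On the log2 scale the difference came to 1.46 ± 0.47 (SE), with a limma adjusted p = 0.034. This call was not firm. Of 23 alternatives, 18 kept it and 5 ended it. Those 5 included fits without library b or c of 60 days (limma adjusted p = 0.081 and 0.10). They also included fits without library a or b of 80 days (limma adjusted p = 0.092 and 0.074). Log2 differences in these fits were 1.33 to 1.45. Among the 18 were a fit of 60 and 80 days alone (limma adjusted p = 0.0058) and one without library c of 40 days (limma adjusted p = 0.00044). The climb of this gene was not confined to the last step. Its values went from 1349, 1268 and 5855 FPKM at 40 days to 8838, 6443 and 6825 FPKM at 50 days. The change of the last interval differed from that of the first by -0.30 ± 0.67 on the log2 scale, which did not pass the test (limma adjusted p = 0.75).

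The largest fall on the log2 scale was that of VIT_09s0002g00320 on chromosome 9. Its 60-day libraries had 127, 179 and 163 FPKM and its 80-day libraries 0.571, 7.59 and 4.10 FPKM, so its mean was 38.3 times as high at 60 days. Without library b of 80 days this ratio was 67.1. All 3 libraries of 80 days lay below every earlier library, with library a lowest. On the log2 scale the difference came to -5.25 ± 0.48 (SE), with a limma adjusted p = 2.13e-05. The values of 69.7, 80.1 and 62.6 FPKM at 40 days were followed by 94.8, 177 and 121 FPKM at 50 days, without any fall. Its change in the last interval was lower than in the first by -6.09 ± 0.67 on the log2 scale (limma adjusted p = 0.000111).

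The largest loss in FPKM among the falling genes that met those criteria was that of VIT_11s0016g00210 on chromosome 11. Its 60-day values of 8206, 7048 and 7107 FPKM gave way to 1642, 1875 and 2223 FPKM at 80 days. These groups stood well apart, and the mean was 3.90 times as high at 60 days. On the log2 scale the difference came to -1.97 ± 0.22 (SE), with a limma adjusted p = 7.79e-05. Fruit of 40 days had 3380, 4545 and 4557 FPKM and fruit of 50 days 7551, 8788 and 4837 FPKM, so the 80-day libraries were also below every younger library. The change of the last interval was lower than that of the first by -2.70 ± 0.31 on the log2 scale (limma adjusted p = 0.000143).

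**Figure D2:**
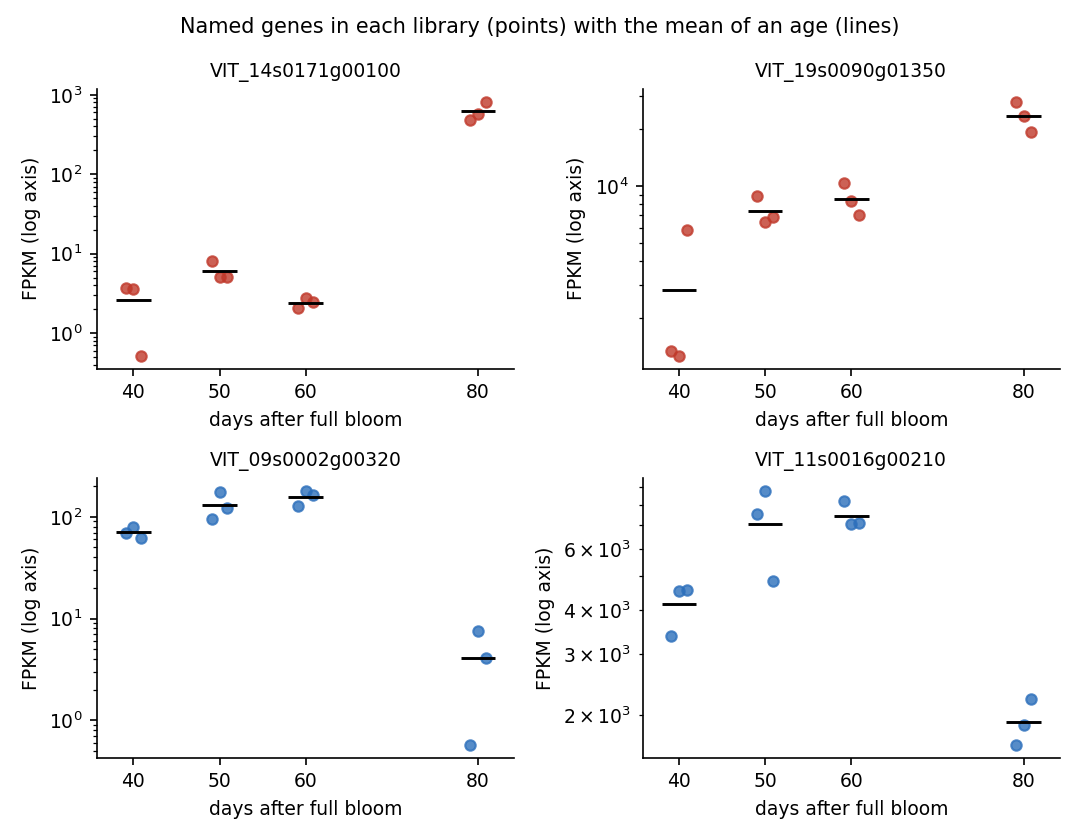
FPKM (log axis, which does not start at 0) of the 4 named genes in each library against age in days after full bloom; points are libraries a, b and c and black lines the mean of an age. The upper genes rose from 60 to 80 days and the lower genes fell, with no overlap between the libraries of these ages.

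Of all 14743 tested genes, 3250 had every 80-day library above every 60-day library and 3803 had every 80-day library below them. The ranking took called genes without overlap between these ages whose higher group reached a mean of 10 FPKM (266 rises and 625 falls). The 10 largest rises among them ranged from 3.65 to 7.48 on the log2 scale. Of these, 9 had a 60-day mean under 5 FPKM, and their 80-day means were 21.7 to 809 FPKM (limma adjusted p from 8.72e-07 to 0.0061). In 9 of the 10, every 80-day library was above every library of 40 and 50 days, yet 7 had been higher at 50 than at 60 days. The 10 largest falls ranged from 4.24 to 5.25 in size and started from 60-day means of 43.0 to 718 FPKM. They ended at 0.631 to 39.8 FPKM, with 4 of the 10 under 5 FPKM (limma adjusted p from 8.72e-07 to 0.0011). In 6 of them the 80-day libraries lay below every younger library. The ranking used these libraries and the filter the higher age alone. Large falls therefore had to start at 10 FPKM or more, and low 60-day values were favoured in large rises. These levels are descriptions only.

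**Figure D3:**
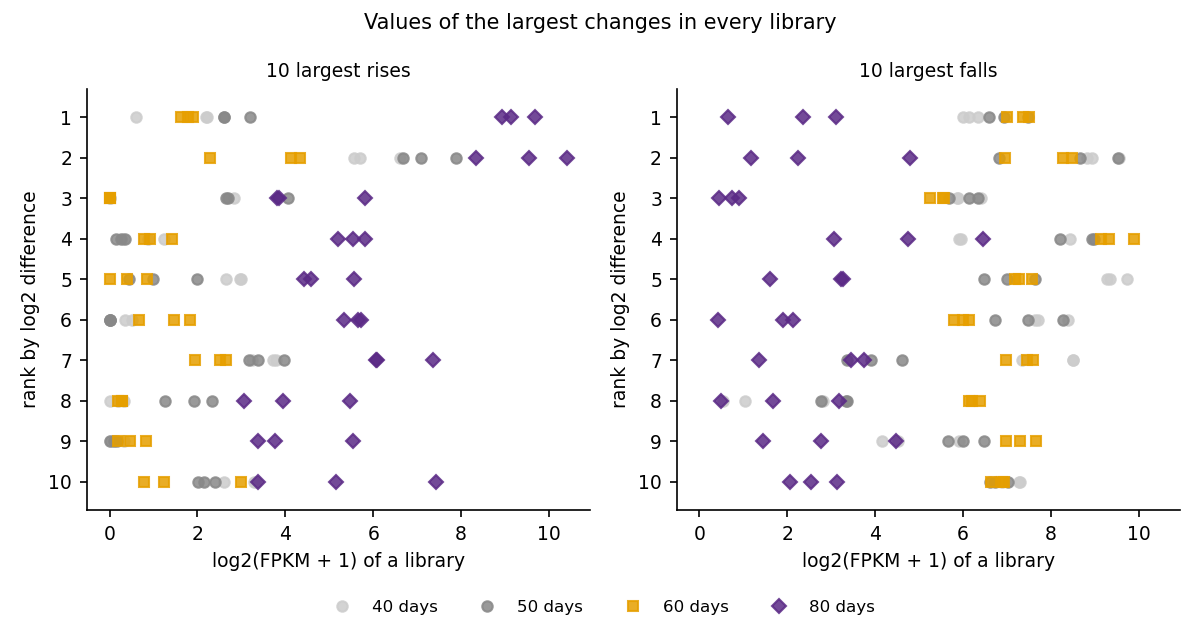
Values on the log2(FPKM + 1) scale in every library (horizontal axis) for the 10 largest rises and the 10 largest falls from 60 to 80 days, one gene per row in order of its difference. The 80-day libraries (diamonds) are clear of the 60-day libraries (squares) in each row, as the choice of genes required.

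The called genes were 9.48% of those tested. The direction in which their share of the transcript pool moved from 60 to 80 days was fixed by the call. The 395 rising genes held 2.72%, 2.69% and 2.64% of the summed FPKM in the 60-day libraries and 7.90%, 6.75% and 6.88% in the 80-day libraries. The 1003 falling genes went from 7.65%, 7.53% and 7.80% to 1.73%, 2.34% and 2.42%. Library a of 80 days was thus the most extreme of its age in both sets. The mean share was 2.68% at 60 days and 7.18% at 80 days in the rising genes, and 7.66% and 2.16% in the falling genes. In unscaled FPKM, whose sum was higher at 80 days, the summed gain of the rising genes was 64484 and the summed loss of the falling genes 64713. The 40-day and 50-day libraries entered the calls through the filter on low values and the estimate of the spread, but not through the difference. In them the rising genes held 1.70%, 1.70% and 2.58% at 40 days (mean 1.99% ± 0.51, SD, n = 3) and 3.08% ± 0.36 at 50 days. The falling genes held 10.6% ± 0.18 and 8.61% ± 0.55, so their share was already lower at 50 than at 40 days.

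**Figure D4:**
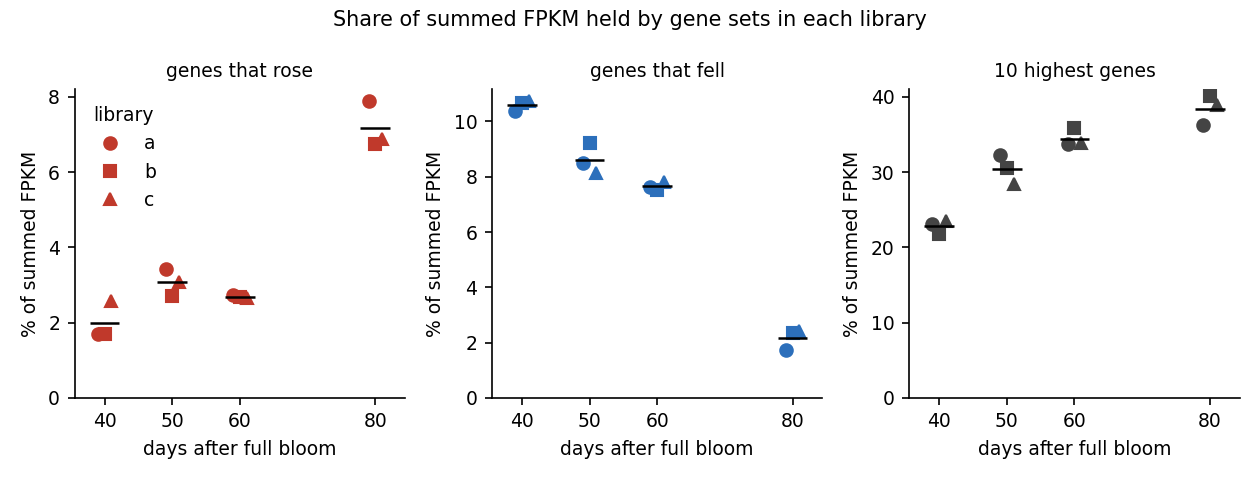
Percent of the summed FPKM held by the genes that rose from 60 to 80 days, by those that fell and by the 10 highest genes of a library, against age in days after full bloom; points are single libraries and lines the mean of an age. The rising genes lie between 6.75% and 7.90% at 80 days and at 3.43% or less in every younger library.

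The few most abundant transcripts held a larger share in the 80-day than in the 60-day libraries, but most of their single changes were not called. The 10 highest genes of a library held 33.7%, 35.9% and 33.8% of its summed FPKM in the 60-day libraries and 36.3%, 40.1% and 38.9% in the 80-day libraries. These groups did not overlap, and the exact two-sided permutation p was 0.1, the smallest that 3 against 3 libraries can give. Of the 10 genes with the highest mean at 80 days, 9 were also among the 10 highest at 60 days. In 8 of them the mean was higher at 80 days, but 1 was called as a rise and 0 as a fall. In 5 of the 10 every 80-day library was above every 60-day library, and in 1 every one was below. The choice by 80-day mean and the summed FPKM, 1.11 times as high at 80 days, both favour a higher mean at that age. The 10 largest gains in mean FPKM added up to 138630. The summed FPKM of a library was higher by 129139 on average at 80 days. That is a net change with all losses included, whereas the 138630 sums gains alone, chosen as the largest. Of those 10 gains, 4 belonged to called genes. The largest single loss, in the gene ranked seventh at 80 days, was from 49850 ± 3718 (SD) to 27342 ± 4159 FPKM and stayed short of the minimum difference (log2 difference -0.88 ± 0.24 SE, limma adjusted p = 0.017).

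Part of this abundance lay in IDs that follow each other in number. The highest gene at 80 days and the 2 IDs next to it on chromosome 5 together made up 13.5% ± 0.84 (SD, n = 3) of the 60-day pool and 16.0% ± 2.4 of the 80-day pool. The libraries of these ages overlapped in that share. The outer IDs of this trio were the 2 highest of all genes at 80 days and did not pass the test (log2 differences 0.38 ± 0.26 SE and 0.34 ± 0.40 SE, with limma adjusted p = 0.28 and 0.56). The middle ID, at a lower level, was called (1.19 ± 0.30 SE, limma adjusted p = 0.0096). Its values were 2300, 3733 and 3068 FPKM in the 60-day libraries and 4560, 10024 and 6846 FPKM in the 80-day libraries, all of the latter above all of the former.

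A second trio of neighbouring IDs, on chromosome 19, did not move as one. It begins with VIT_19s0090g01350, described above. The ID next to it was lower at 80 days in all 3 libraries, going from 10133, 7170 and 5875 FPKM to 3307, 5479 and 3303 FPKM (log2 difference -0.94 ± 0.24 SE, limma adjusted p = 0.012, below the minimum size). The next one was higher, going from 27327, 32100 and 26412 FPKM to 49938, 60525 and 48950 FPKM (0.89 ± 0.22 SE, limma adjusted p = 0.0090, also below the minimum size). Whether neighbouring IDs are near-identical copies that share reads was not tested, and values of such copies would be uncertain.

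Most called changes took the fruit to a level outside that of the younger ages. Of the 395 rising genes, 258 (65.3%) had every 80-day library above every 40-day and 50-day library, a state found in 15.3% of all tested genes. Of the 1003 falling genes, 732 (73.0%) had every 80-day library below all of those, against 22.1% of all tested genes. The calls used the 80-day values, so shares above those of all genes are built in. Of the other 137 rising and 271 falling genes, 3 rises had every 80-day library below all libraries of 40 and 50 days and 2 falls had every one above them. In the remaining 134 and 269 genes the 80-day libraries overlapped with the range of 40 and 50 days. Among the rising genes, the mean at 80 days was above the means of both 40 and 50 days in 332 and between these means in 48, and it was below both in 15. Among the falling genes it was below both means in 894, between them in 93 and above both in 16.

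The course over all ages is given as a description. Over the rising genes, the median level on the log2(FPKM + 1) scale was 3.15, 3.26, 2.93 and 4.64 at the 4 ages in order. For the falling genes it was 4.32, 3.91, 4.11 and 2.44, and for all tested genes 3.90, 3.80, 3.75 and 3.66. The call and the filter favour falls from a high and rises from a low 60-day level, so nothing is read from the order of these medians at 60 and 80 days. From 40 to 50 days, whose libraries are not part of the difference that was called, the median change was 0.19 on the log2(FPKM + 1) scale in the rising genes, -0.28 in the falling genes and -0.07 in all tested genes. The mean was higher at 50 than at 40 days in 59.5% of the rising genes, 36.9% of the falling genes and 44.6% of all tested genes. These medians and shares are descriptions over genes, which are not independent replicates. Before 80 days, the falling genes had their highest mean at 40 days in 49.5%, at 50 days in 14.5% and at 60 days in 36.1%.

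**Figure D5:**
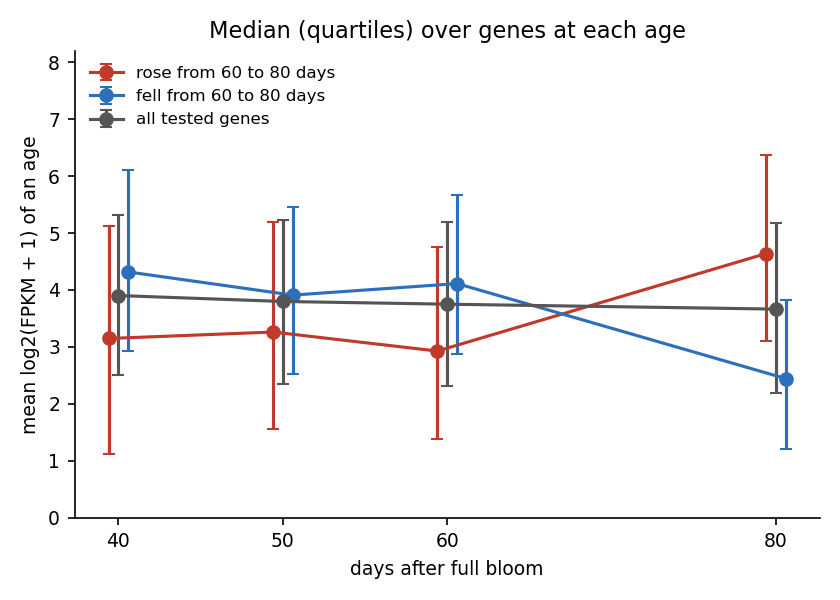
Median over genes, with bars from the lower to the upper quartile, of the mean log2(FPKM + 1) at each age for the 395 genes that rose from 60 to 80 days, the 1003 that fell and all 14743 tested genes. The medians of the rising and falling sets cross between 60 and 80 days, while that of all tested genes goes from 3.75 to 3.66.

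The change of the last interval was also tested against the changes of the earlier ones, gene by gene in the same fit. Against the interval from 40 to 50 days, which shares no library with it, the change from 60 to 80 days was more positive in 1194 genes (8.10% of those tested) and more negative in 1211 (8.21%) by limma's adjusted p and a difference of at least 1. Against the interval from 50 to 60 days it was more positive in 647 genes (4.39%) and more negative in 1131 (7.67%). The count of 647 was 416 without library c of 60 days, which enters both intervals. The last interval spans 20 days and the earlier ones 10 days each, and differences in length and in the stage of ripening cannot be told apart.

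Calls were also set against a library left out of the fit, though it entered the filter on low values. The 3 libraries of the other age served both for the calls and for this comparison, which raises the shares, and those over all tested genes are no measure of what unchanged genes would give. When a library of 80 days was left out of the fit, the genes then called as rising were above all 60-day libraries in the omitted one in 92.3% (library a), 96.7% (b) and 93.4% (c) of cases. For falls, the omitted library was below all 60-day libraries in 96.6%, 97.4% and 98.1%. Among all tested genes, 34.5% to 39.5% were above and 38.8% to 40.5% below. A difference of at least 1 from the 60-day mean was reached by the omitted library in 65.8% to 71.5% of the rises and 75.0% to 79.1% of the falls. With a 60-day library left out, that library lay beyond the 80-day libraries in 94.6% to 99.1% of the rises and 97.6% to 99.4% of the falls. Among all tested genes these shares were 33.0% to 33.5% and 36.0% to 38.2%.

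In falling genes, library a of 80 days lay further along the direction of change than b and c. In the 952 genes called as falling without it, library a was below both b and c in 48.0% and above both in 30.6%. In the genes called as falling without library b, that library was below the other 2 in 11.0% and above them in 50.7%, and for library c the shares were 20.2% and 41.9%. In rises called without the library in question, library a was the highest of the 3 in 36.8% and the lowest in 42.1%. Library b was highest in 14.6% and lowest in 44.3%, and library c in 18.2% and 47.7%. Library a also held the highest value of its age in 43.1% of all tested genes, against 26.5% for b and 30.1% for c. The lowest value was in library a in 34.8% of all tested genes, in b in 28.3% and in c in 36.1%. Each set of calls used the other 2 libraries of 80 days, so the shares in called genes are descriptions only. Its deviations from the mean of its age had an SD of 0.30 on the log2 scale, against 0.23 and 0.27 in b and c. Without it, 375 genes rose and 952 fell, of which 327 and 865 were among those called with all libraries.

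Complete switches were rare. In 6 of the 14743 tested genes every 60-day library was under 1 FPKM and every 80-day library at 5 FPKM or more. All 6 were called as rising, but this definition by itself puts the differences above the minimum of 1. Their 80-day means were 7.21 to 30.0 FPKM, and 3 of them were under 1 FPKM in every 40-day and 50-day library as well. In a gene outside these 3, the 50-day libraries had 5.47, 15.7 and 5.25 FPKM and every 60-day library a listed 0. Such a 0 can be a failed estimate, so this switch is uncertain. Another gene outside these 3 had 6.96, 6.86 and 5.32 FPKM in the 40-day libraries. In 10 genes the switch went the other way, from 60-day means of 5.77 to 43.0 FPKM to under 1 FPKM in every 80-day library. All 10 were called as falling, and here too the definition fixed that the differences passed the minimum. Of these, 3 had been at 5 FPKM or more in every library of 40 and 50 days, while 1 was under 1 FPKM in all of them and so had values of 5 FPKM or more at 60 days alone among the ages sampled. The number lost was 16 with libraries scaled to a sum of 1000000, 20 without library a of 60 days and 30 without library b of 80 days.

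Changes reached all levels of expression. Among tested genes with a mean of 1 to 10 FPKM over all libraries, 2.75% rose and 6.75% fell. Between 10 and 100 FPKM the shares were 2.30% and 6.77%, and between 100 and 1000 FPKM 3.88% and 8.95%. Of the 94 genes at 1000 FPKM or more, 9 rose and 9 fell, so falls did not outnumber rises there. The 620 tested genes with a mean under 1 FPKM, where the pseudocount of 1 shrinks differences, had 15 rises and 14 falls.

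Some called genes followed each other in ID order. Reading order from the numbers in the VIT_ IDs, 10 runs of 3 or more tested neighbours on 1 scaffold were called in the same direction, 4 rising and 6 falling, with 36 genes in all (2.65% of the called genes of that ID form). Between neighbours, the tested ID after a rising gene on the same scaffold was itself rising in 25 of 371 cases (6.74%), against 2.68% over all 13782 such pairs. After a falling gene it was falling in 87 of 932 cases (9.33%), against 6.78% over all pairs. These shares are descriptions with no test. IDs that were not tested were passed over, so the 10 runs spanned 3 to 40 consecutive ID numbers and their genes need not be adjacent. The longest was a run of 6 falling genes on chromosome 8. Their summed FPKM was 1861, 1301 and 1153 in the 60-day libraries and 136, 331 and 240 in the 80-day libraries, and the differences of its genes were 1.17 to 4.70 in size on the log2 scale (limma adjusted p from 0.0011 to 0.019). Its summed FPKM was 466, 401 and 1140 at 40 days and 1636, 1471 and 787 at 50 days, so these ages overlapped. The 40-day mean of 669 FPKM was 433 FPKM without library c. A run of 4 falling genes on chromosome 11 spanned 10 ID numbers. Its summed means were 297, 21.2, 261 and 14.3 FPKM at the 4 ages in order, going down and up and down again. The first gene of this run alone had means of 295, 15.5, 164 and 8.02 FPKM, so the 40-day sum came almost wholly from that gene.

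Rising runs were of 3 or 4 genes. The run of 4, on chromosome 4, had a summed mean of 484 FPKM at 60 days and 1173 at 80 days, most of it from 1 gene with 401 and 883 FPKM. On chromosome 18 a run of 3 climbed at each age, with summed means of 1.11, 2.92, 7.86 and 52.0 FPKM at 40, 50, 60 and 80 days. A run of 3 on chromosome 2 went from 28.2 to 125 FPKM between 60 and 80 days, after 20.3 and 24.5 FPKM at the younger ages. In the run of 3 on chromosome 16 the rise was a return, with 120, 75.5, 32.5 and 101 FPKM at the 4 ages. Neighbours of similar sequence can share reads, and whether these do was not tested.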

How the data were processed

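Polyadenylated RNA of Victoria fruit was sequenced in 12 libraries, 3 at each of 4 ages. The authors deposited FPKM values; per the submitters' processing notes the tools included TopHat2, Cufflinks, edgeR, FastQC and Trimmomatic 0.36, with no roles given. Genome build and annotation are not given in the sources used. No scaling between libraries is recorded. All columns were matched to samples by the labels (0 left over). FPKM are not counts, so limma 3.58.1 (R 4.3.3, moderated test with intensity trend, 8 residual degrees of freedom) was fitted to log2(FPKM + 1) of all 12 libraries with 1 mean per age; the pseudocount of 1 understates changes of low genes. The rest was computed with scipy 1.17.1, pandas 2.3.3 and numpy 2.4.6 in Python 3.11.15. The fit was tested on simulated data. Depth is unknown, so values carry no counting interval.

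The comparison and the lists were chosen with earlier results of these data known. The 22 lists defined by product name could not be filled because no ID is paired with a name. Per direction 2 IDs are named, the largest log2 difference and the largest difference in mean FPKM among called genes whose higher group averaged 10 FPKM or more and whose 60-day and 80-day libraries did not overlap. Alternatives varied pseudocount, filter, scaling, replicate block, trend, minimum difference, the ages fitted and each library.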

Additional observations from a re-analysis of the deposited data

How the results depend on the processing

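Counts of called genes stayed within 1.5 times those reported with a pseudocount of 0.1, with the filter dropped or set at 5 FPKM, with either scaling, without an intensity trend, in a fit of 60 and 80 days alone and without any single library (1310 to 1436 called, 348 to 407 rising and 952 to 1039 falling), and 0 genes were called in opposite directions. With libraries scaled to a sum of 1000000, the median of all tested genes moved to -0.13 and 284 genes rose while 1119 fell; median-of-ratios scaling gave 422 and 972. A pseudocount of 5 gave 735 genes (221 rising, 514 falling), of which 161 and 403 left the range of 40 and 50 days, and 712, 685, 381 and 731 in the contrasts with the first interval (more positive, more negative) and the middle one; by construction it makes the differences of low genes smaller. With no minimum difference the numbers were 5137 (2271 and 2866), 1256 and 1848, and 3008, 2484 and, more positive than in the middle interval, 1373. Over single libraries left out, the reported 647 genes more positive than in the middle interval became 416 to 680. Genes switched off ranged from 10 to 30, and scaling to a sum gave 16 of them. The letters a, b and c do not pair the libraries: deviations of same-lettered libraries of 60 and 80 days correlated at -0.04, -0.03 and 0.03. With the letter as a replicate block 389 genes rose and 1004 fell. VIT_19s0090g01350 also lost its call without a filter (limma adjusted p = 0.071, range over its alternatives 0.000444 to 0.10); the cause was not tested. The other 3 named genes kept direction and call in all 23 alternatives. Leaving out library c of 40 days and library a of 80 days together, chosen after seeing the data, gave 386 rises and 967 falls.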

Other observations

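Called genes were found on all 19 numbered chromosomes. The share of tested genes that rose was 0.873% to 3.79% per chromosome and the share that fell 5.07% to 8.68%. The lowest share of rises was on chromosome 3, with 5 of 573 tested genes, and the highest on chromosome 10, with 16 of 422. The highest share of falls was on chromosome 18, with 94 of 1083. Of the 327 tested IDs called newGene, 10 rose (3.06%) and 28 fell (8.56%). No test was made of these differences.

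A few tested IDs went to or came from a listed value of exactly 0. In 13 of them every 80-day library was listed at 0 and every 60-day library above 0, with a highest 60-day mean of 1.33 FPKM. In 6 the reverse held, with a highest 80-day mean of 27.4 FPKM. A listed 0 in such a table can be a failed estimate.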
